A study of Mus musculus with 12 samples.

Results

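The 40 genes described here encode proteins that build, crosslink, cut or signal through the extracellular matrix, and their RNA levels were followed in subcutaneous white adipose tissue (scWAT) of mice. They were taken by name from a list drawn up with earlier results of these data known, and its rule uses no measured value: 12 matrix glycoproteins and proteoglycans, 6 enzymes and chaperones of collagen and elastin maturation, 8 proteases, 3 protease inhibitors, 4 ligands of the TGF-beta family, 4 TGF-beta receptors or SMAD proteins, and 3 TGF-beta target or contractile genes. Collagen genes were not among them. All 40 were found among the 55401 gene identifiers of the count files, and all 40 were among the 16540 genes whose counts were high enough to be tested.

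The study asked how a week of cold changes scWAT when the histone demethylase JMJD1A (gene *Kdm3a*) is active or inactive. Wild-type mice (*Jmjd1a* +/+) were compared with *Jmjd1a* HY/HY mice, which carry on both alleles a histidine-to-tyrosine substitution that inactivates the demethylase. All mice were females of 16 weeks on a C57BL/6J-derived background, housed singly and acclimated to 30°C. They were then kept at 30°C (thermoneutrality) or at 8°C (cold) for 1 week, with 3 mice and so 3 libraries in each of the 4 groups. The substitution was made by CRISPR in the germ line and is present in every cell type of the fat pad.

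The extracellular matrix of fat is a mesh of collagen, elastic fibers, glycoproteins and proteoglycans around each adipocyte. Fibroblasts and adipocyte progenitors make much of it, the LOX family of copper enzymes crosslinks it, and metalloproteases of the MMP and ADAMTS families cut it, restrained by TIMP proteins. TGF-beta is stored in the matrix in latent form. Once released it binds its receptors, SMAD3 carries the signal to the nucleus, SMAD7 dampens it, and matrix and contractile genes are among its known targets. Adipose tissue remodels its matrix as adipocytes grow, shrink or turn beige.

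Between 13592629 and 26352081 sense-strand read pairs per library fell on genes. Levels are given as TMM-scaled CPM, the read pairs of a gene relative to the size of its library adjusted by TMM factors, which correct for a few genes taking a large share of a library. *Kdm3a* RNA was 45.5 ± 7.68 CPM (SD, n = 3) in HY/HY and 49.3 ± 11.2 CPM in wild-type mice at 30°C, and a point substitution need not lower it, so its level does not check the genotype label. *Ucp1*, which uncouples respiration in thermogenic adipocytes, lay at 5048 to 6055 CPM in cold wild-type mice, at 212 to 904 CPM in cold HY/HY mice, and at or below 4.58 CPM in every mouse at 30°C. Some libraries stood apart. Markers of skeletal muscle (8 genes) summed to 1272 CPM in wild-type replicate 2 at 30°C and to at most 26.1 CPM in each of the other libraries. In HY/HY replicate 3 at 30°C, 16.8% of counts came from mitochondrial DNA, against 9.32% and 9.76% in the other mice of its group. Markers of mammary epithelium summed to between 879 and 5583 CPM over the 12 libraries. The libraries are of bulk tissue, and the methods do not say whether a whole fat pad or a piece was used. In bulk tissue, fewer cells of a type and less RNA per cell cannot be told apart.

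The most abundant members per kilobase of exon in wild-type mice at 30°C were *Sparc*, a collagen-binding glycoprotein, at 382 CPM per kb, *Dcn*, the small proteoglycan decorin, at 189, and *Serpinh1*, a chaperone of procollagen, at 144. *Mmp12*, *Inhba* and *Tgfb2* were the lowest, at 0.0871, 0.286 and 0.613 CPM per kb. Between 5 and 190 read pairs per library fell on *Mmp12* and between 4 and 22 on *Inhba*, so only large changes of these genes were detectable at this depth.

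The genotypes differed in the RNA of some of the members. At both temperatures the HY/HY mice had more RNA of *Lox*, lysyl oxidase, which starts the crosslinking of collagen and elastin, and of *Adamts5*, a protease that cuts the proteoglycans aggrecan and versican. At 8°C they also had more RNA of *Thbs2*, a matricellular glycoprotein, and of the small leucine-rich proteoglycans *Dcn* and *Lum* (lumican), which bind collagen fibrils. A gene was called when the Benjamini-Hochberg adjusted p of edgeR's quasi-likelihood test was under 0.05 and its fold change was above 1.5 or below 0.67. By this rule 2 of 40 members were higher in HY/HY mice at 30°C, where 0.562% of all tested genes were called higher, and 5 of 40 at 8°C, where 1.51% were. No member was called lower at 30°C (0.441% of all genes) or at 8°C (4.42%). An unadjusted p under 0.05 was found for 14 members (35.0%) at 30°C, against 18.6% of all genes, and for 16 (40%) at 8°C, against 22.4%. DESeq2 called 7 members higher at 30°C and 10 at 8°C, where it called 2.09% and 2.36% of the genes it tested. At 30°C these were *Lox*, *Adamts5*, *Thbs2*, *Ctgf*, *Serpinh1*, *Sparc* and *Acta2*. At 8°C they were the 5 members that edgeR called, with *Mmp2*, *Mmp3*, *Mmp12*, *Timp2* and *Fbln1*. DESeq2 called no member lower at either temperature, where it called 1.90% and 5.69% of genes.

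**Figure D1:**
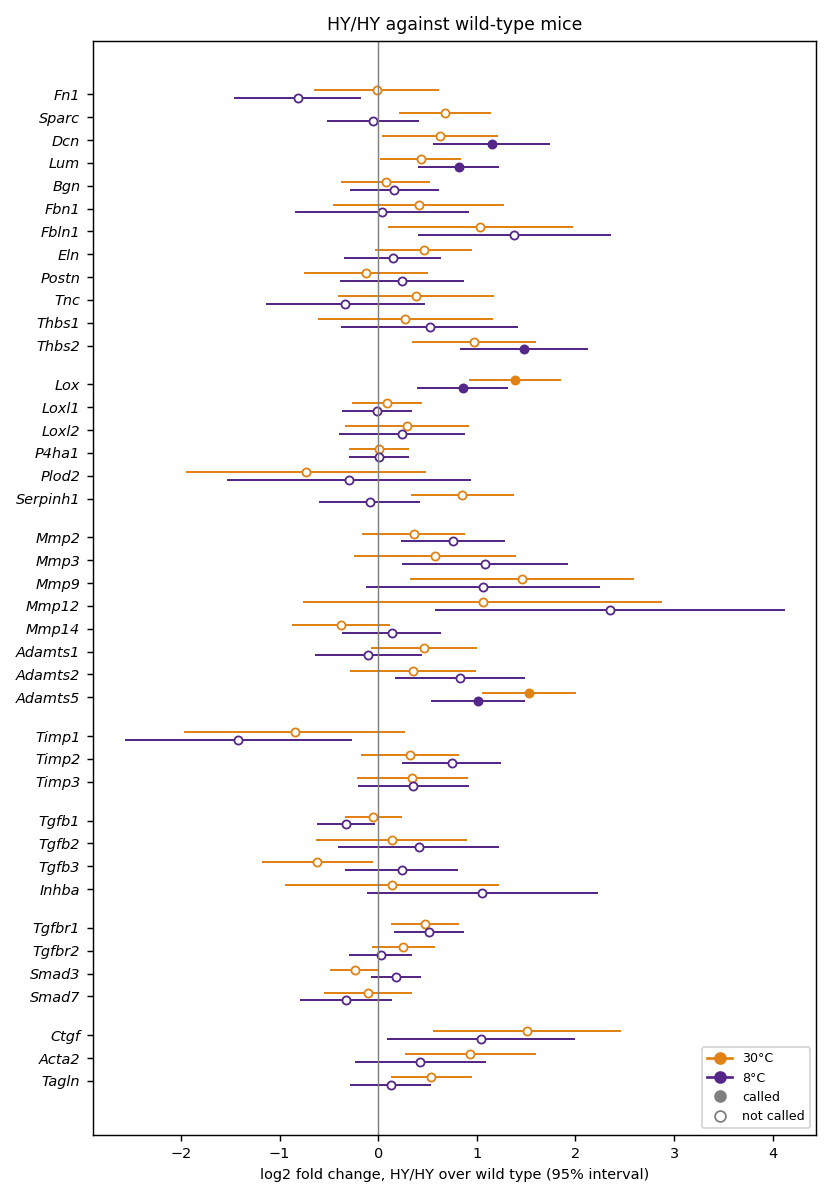
Log2 fold change of each member in HY/HY over wild-type mice at 30°C (orange) and 8°C (purple), with its 95% interval, members grouped by role, filled points called. Of the 40 members, 31 lay above 0 at 30°C and 30 at 8°C, and the filled points are *Lox* and *Adamts5* at both temperatures and *Dcn*, *Lum* and *Thbs2* at 8°C.

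*Lox* was at 17.4, 12.4 and 11.9 CPM in wild-type and at 41.0, 36.5 and 31.2 CPM in HY/HY mice at 30°C. In the cold the gene was at 25, 20.7 and 18.7 CPM in wild-type and at 47.9, 28.1 and 40.4 CPM in HY/HY mice. Every HY/HY library was above every wild-type library at its temperature. The fold was 2.61 at 30°C (log2 1.38 ± 0.21 SE, adjusted p = 0.0195) and 1.81 at 8°C (log2 0.85 ± 0.21, adjusted p = 0.0298). The 30°C call was lost in 3 of 21 alternatives. These were library totals, only the libraries of the comparison (adjusted p = 0.138), and removal of wild-type replicate 2 at 30°C. The 8°C call was lost in 4 of 21, each the removal of 1 library at 8°C. The gene lies on chromosome 18 at 52516060 to 52529867 (GRCm38.p6).

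*Adamts5* was at 36.7, 52.2 and 31.2 CPM in wild-type and at 109, 100.4 and 137 CPM in HY/HY mice at 30°C. In the cold the gene was at 35.7, 29.6 and 27 CPM in wild-type and at 75.4, 47.9 and 62.7 CPM in HY/HY mice. The genotypes did not overlap at either temperature, and HY/HY mice were lower at 8°C than at 30°C in every library. The fold was 2.88 at 30°C (log2 1.52 ± 0.21 SE, adjusted p = 0.0162) and 2.02 at 8°C (log2 1.01 ± 0.22, adjusted p = 0.0164). The 30°C call was lost in 2 of 21 alternatives, with only the libraries of the comparison (adjusted p = 0.138) and without wild-type replicate 1 at 30°C. The 8°C call was lost in 4 of 21, each the removal of 1 library at 8°C. *Adamts5* lies on chromosome 16. Its neighbour on chromosome 16, *Adamts1*, which also cuts proteoglycans, was not called, at log2 0.47 at 30°C and -0.10 at 8°C.

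*Dcn* was at 365, 271 and 289 CPM in wild-type and at 865, 527 and 658 CPM in HY/HY mice at 8°C, where the groups did not overlap (2.22-fold, log2 1.15 ± 0.27 SE, adjusted p = 0.0244). At 30°C it was at 426, 390 and 281 CPM in wild-type and at 754, 564 and 376 CPM in HY/HY mice, and the groups overlapped (log2 0.63 ± 0.26, adjusted p = 0.233). *Lum*, which lies beside *Dcn* on chromosome 10, followed the same order. It was at 86.5, 69.8 and 78.0 CPM in wild-type and at 159, 133 and 121 CPM in HY/HY mice at 8°C, again without overlap (1.76-fold, log2 0.82 ± 0.18 SE, adjusted p = 0.0207). At 30°C it was at 96.9, 67.7 and 83.3 CPM in wild-type and at 135, 113 and 85.5 CPM in HY/HY mice, which overlapped (log2 0.43 ± 0.18, adjusted p = 0.235).

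*Thbs2* was at 15.3, 12.1 and 20.0 CPM in wild-type and at 36.5, 40.9 and 55.2 CPM in HY/HY mice at 8°C (2.79-fold, log2 1.48 ± 0.29 SE, adjusted p = 0.0123). At 30°C it was at 29.5, 21.1 and 16.3 CPM in wild-type and at 61.7, 38.0 and 31.6 CPM in HY/HY mice. The HY/HY libraries were above all wild-type libraries at 30°C as well, but the difference missed the threshold (log2 0.97 ± 0.28, adjusted p = 0.106). The promoter window of *Thbs2* is shown here. It runs from 250 bases before to 50 bases after its start site in RefSeq (GRCm38.p6, chr17:14694213-14694512, minus strand) and is printed 5′ to 3′ because SMAD proteins, the carriers of the TGF-beta signal, bind the letters CAGAC. The capitals mark these letters, which read GTCTG on the strand shown.
Thbs2: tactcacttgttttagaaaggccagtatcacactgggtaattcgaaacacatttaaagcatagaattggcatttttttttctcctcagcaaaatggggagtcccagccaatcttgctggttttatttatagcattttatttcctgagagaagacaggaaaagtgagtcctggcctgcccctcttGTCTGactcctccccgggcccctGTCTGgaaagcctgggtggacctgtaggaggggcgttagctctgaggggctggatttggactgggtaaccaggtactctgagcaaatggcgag
The matches lie at -66 to -62 and at -43 to -39 from the start site. Windows were found for 24 of the 40 members, and CAGAC on either strand was in those of 11. It was also in 49.6% of the 32851 promoter windows of all genes, so a match is common. The palindrome GTCTAGAC, which does not itself contain CAGAC, was in 0.213% of all windows and in none of the members'. The AP-1 site TGANTCA was in 7.81% of all windows and in those of 2 members, and the CArG box of serum response factor in 1.63% of all windows and in none of the members'.

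**Figure D2:**
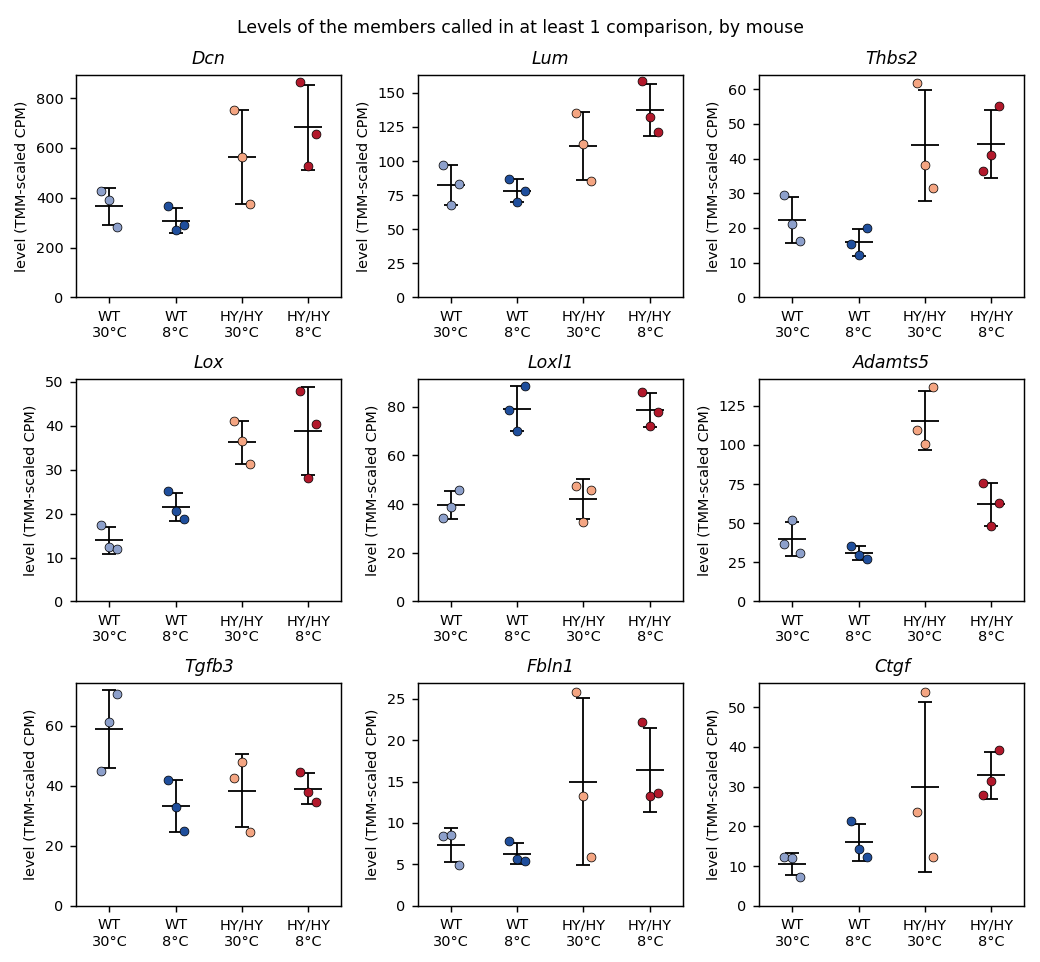
Level in TMM-scaled CPM of the 9 members called in at least 1 comparison, one point per mouse, with the mean and SD of each group of 3 as bars. *Lox* and *Adamts5* of HY/HY mice lie above those of wild-type mice at both temperatures, *Loxl1* is higher at 8°C than at 30°C in both genotypes, and *Tgfb3* falls with cold in wild-type mice. By edgeR, *Fbln1* and *Ctgf* were called in the average over temperatures only.

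These counts depended on single libraries. Without wild-type replicate 2 at 8°C no member was called at 8°C, and without wild-type replicate 3, HY/HY replicate 1 or HY/HY replicate 3 at 8°C 1 was. Without HY/HY replicate 1 or replicate 3 at 30°C, 8 members were called at 8°C. At 30°C, 1 member was called without wild-type replicate 1 or 2, and 4 without HY/HY replicate 3. The exact two-sided permutation test of 3 against 3 mice cannot go below p = 0.1, the value it gave for *Lox* and *Adamts5* at 30°C and for all 5 members called at 8°C.

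Averaged over both temperatures, a comparison chosen after seeing the data, 7 of 40 members were called higher in HY/HY mice and none lower, where 2.13% of all genes were called higher and 2.27% lower. An unadjusted p under 0.05 was found for 18 members (45.0%), against 26.1% of all genes. DESeq2 called 11 members higher, against 2.77% of the genes it tested, and 1 lower, against 3.41%. The 7 members were *Dcn*, *Lum*, *Thbs2*, *Lox* and *Adamts5*, together with *Fbln1*, fibulin-1, a glycoprotein of elastic fibers and basement membranes, and *Ctgf*, connective tissue growth factor, a classical TGF-beta target. The folds of the first 5 were 1.85, 1.54, 2.34, 2.17 and 2.41 in that order, with adjusted p from 0.00368 to 0.0182. *Thbs2*, *Lox* and *Adamts5* were called in each of 20 alternative analyses. *Dcn* was lost without wild-type replicate 2 or 3 at 8°C (log2 0.85 and 0.87), and *Lum* without wild-type replicate 2 or HY/HY replicate 1 at 30°C or without HY/HY replicate 1 at 8°C (log2 0.54 to 0.57). Without wild-type replicate 2 or 3 or HY/HY replicate 1 at 8°C the count was 4, and without HY/HY replicate 3 at 30°C it was 13.

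*Fbln1* was at 8.43, 8.59 and 4.94 CPM in wild-type and at 25.9, 13.2 and 5.93 CPM in HY/HY mice at 30°C. In the cold the gene was at 7.80, 5.66 and 5.45 CPM in wild-type and at 22.2, 13.3 and 13.6 CPM in HY/HY mice. HY/HY replicate 3 at 30°C lay within the wild-type range, and the genotypes were apart at 8°C. The averaged fold was 2.31 (log2 1.21 ± 0.31 SE, adjusted p = 0.0354). The call was lost in 10 of 20 alternatives, with library totals and without any 1 of 9 libraries, at log2 values from 0.89 (without HY/HY replicate 1 at 30°C) to 1.30.

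*Ctgf* was at 12.2, 12.1 and 7.28 CPM in wild-type and at 23.6, 53.8 and 12.2 CPM in HY/HY mice at 30°C. In the cold the gene was at 21.3, 14.2 and 12.4 CPM in wild-type and at 27.8, 31.4 and 39.3 CPM in HY/HY mice. At 30°C the lowest HY/HY mouse reached only the top of the wild-type range, and HY/HY replicate 2 was far above the rest. The averaged fold was 2.42 (log2 1.27 ± 0.31 SE, adjusted p = 0.029). The call was lost in 5 of 20 alternatives, without wild-type replicate 3 at 30°C or, at 8°C, wild-type replicate 2 or 3 or HY/HY replicate 1 or 3, at log2 values from 1.17 to 1.33. The contractile genes *Acta2* (smooth muscle actin) and *Tagln* (transgelin), also in the target group, were not called, at averaged log2 0.68 (adjusted p = 0.0686) and 0.33 (adjusted p = 0.127). DESeq2 called *Acta2* higher at 30°C (log2 0.94, adjusted p = 0.0398) and in the average (log2 0.68, adjusted p = 0.0189).

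By role, 10 of 12 glycoproteins and proteoglycans had a fold above 1 in HY/HY mice at 30°C and 9 of 12 at 8°C. *Fn1*, fibronectin, was among the others at 8°C, at log2 -0.82 ± 0.29 SE (adjusted p = 0.116). Of the 8 proteases 7 lay above 1 at each temperature. *Mmp2* and *Mmp3*, a gelatinase and a stromelysin, stood at log2 0.76 ± 0.24 (adjusted p = 0.0756) and 1.08 ± 0.38 (adjusted p = 0.113) at 8°C, and neither was called. *Mmp12* had the largest change of the proteases at 8°C (log2 2.35) but was not called. It was at 2.30, 0.377 and 0.770 CPM in wild-type and at 2.07, 11.9 and 3.49 CPM in HY/HY mice, which overlapped. DESeq2 called *Mmp12* (log2 2.32, adjusted p = 0.0358), *Mmp2* (log2 0.74, adjusted p = 0.0313) and *Mmp3* (log2 1.06, adjusted p = 0.048) higher at 8°C. The inhibitors did not move as one. *Timp2* was at log2 0.75 ± 0.22 (adjusted p = 0.0683) and *Timp1* at -1.42 ± 0.52 (adjusted p = 0.13) at 8°C, where *Timp1* had as few as 6 read pairs in a library. DESeq2 called *Timp2* higher at 8°C (log2 0.73, adjusted p = 0.0251).

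Of the ligands, receptors and SMAD proteins of the TGF-beta pathway, none was called between genotypes at either temperature. The 4 ligands *Tgfb1*, *Tgfb2*, *Tgfb3* and *Inhba* (a subunit of activin) lay between log2 -0.62 and 0.14 at 30°C and between -0.32 and 1.05 at 8°C. The lowest was *Tgfb3* at 30°C (log2 -0.62 ± 0.25 SE, adjusted p = 0.221). The highest was *Inhba* at 8°C (log2 1.05 ± 0.53, adjusted p = 0.27), at 0.595, 0.679 and 0.257 CPM in wild-type and 1.42, 0.750 and 0.974 CPM in HY/HY mice, which did not overlap but rest on few read pairs. *Tgfbr1*, the type I receptor, was at 14.6, 13.8 and 12.1 CPM in wild-type and at 15.5, 22.0 and 18.7 CPM in HY/HY mice at 30°C. In the cold the gene was at 18.9, 19.8 and 14.2 CPM in wild-type and at 24.9, 24.4 and 26.1 CPM in HY/HY mice. The HY/HY libraries were the higher ones at both temperatures. Averaged over temperatures its adjusted p was 0.0223, but the fold of 1.41 was below the threshold of 1.5. *Tgfbr2*, *Smad3* and *Smad7* stayed within log2 0.25, -0.24 and -0.33 of wild-type at both temperatures and were not called.

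Over all 40 members the median log2 difference between genotypes was 0.36 at 30°C and 0.24 at 8°C, against -0.01 and 0.01 over all tested genes. At 30°C 31 members were above 0 and at 8°C 30 were, and 8102 and 8482 of the 16540 tested genes were. The comparisons at 30°C and 8°C share no library. In them 26 members (65.0%) were above 0 at both temperatures, 5 were below 0 at both and 9 were on opposite sides, while 29.1% of all tested genes were above 0 at both. Without HY/HY replicate 1 at 30°C the median at 30°C was 0.17.

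**Figure D3:**
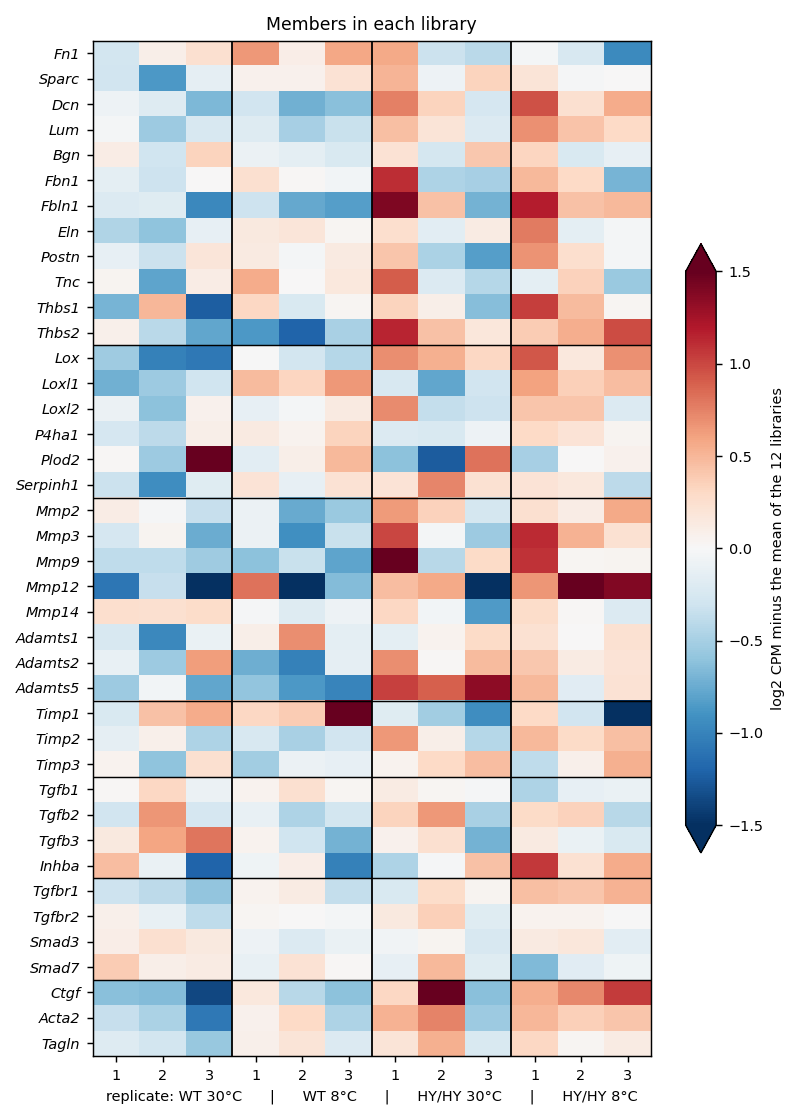
Log2 CPM of each member in each of the 12 libraries minus its mean over them, red above and blue below, with replicates 1 to 3 of each group side by side. HY/HY replicate 1 is above the mean for 31 of 40 members at 30°C and for 34 at 8°C, while HY/HY replicate 3 at 30°C is above it for 14.

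Mice of one group differed among themselves. At 30°C the wild-type libraries were above the 12-library mean for 11 to 15 of the 40 members, and the HY/HY libraries for 31, 24 and 14. At 8°C the wild-type libraries were above it for 14 to 20 members and the HY/HY libraries for 24 to 34. HY/HY replicate 3 at 30°C, the library with the most mitochondrial counts in its group, thus lay among the wild-type libraries by this count. The 40 members together took 0.476% to 0.772% of counts in HY/HY and 0.392% to 0.486% in wild-type libraries. Their summed level was 5203 to 6627 CPM in HY/HY and 3425 to 4885 CPM in wild-type mice. Abundant genes weigh most in such a sum. *Sparc* alone was at 934 to 1538 CPM in wild-type and 1609.3 to 2414.5 CPM in HY/HY mice at 30°C. Between genotypes edgeR did not call it, and DESeq2 called it higher at 30°C (log2 0.68, adjusted p = 0.0186). At 8°C *Sparc* was at 1771.5 to 1966.1 and 1671 to 1931.1 CPM.

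Cold moved few of the members. The clearest response was that of *Loxl1*, a lysyl oxidase needed for elastic fibers, whose RNA rose in both genotypes. In wild-type mice *Lox* also rose, and *Tgfb3*, a TGF-beta ligand, fell. In wild-type mice 2 of 40 members were called higher at 8°C, where 10.3% of all genes were, and 1 lower, where 6.93% were. In HY/HY mice 1 member was called higher, where 0.181% of all genes were, and none lower, where 0.0665% were. An unadjusted p under 0.05 was found for 11 members (27.5%) in wild-type mice, against 38.4% of all genes, and for 5 (12.5%) in HY/HY mice, against 14.7%. DESeq2 called 1 member lower in HY/HY mice, *Adamts5*, where it called 0.598% of the genes it tested. With library totals in place of TMM, the median of all genes in wild-type mice moved from log2 -0.07 to -0.41, all genes called changed from 1707 higher and 1147 lower to 1057 and 4144, and 1 member was called higher and 4 lower. The shares of members called in wild-type mice, higher or lower, were below those of all genes both with TMM scaling and with library totals.

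*Loxl1* was at 34.2, 38.7 and 45.8 CPM at 30°C and at 78.6, 70.2 and 88.7 CPM at 8°C in wild-type mice. In HY/HY mice it was at 47.6, 32.7 and 46.0 CPM at 30°C and at 85.9, 72.0 and 77.9 CPM at 8°C. Every mouse in the cold was above every mouse at 30°C, in either genotype. In wild-type mice the log2 difference was 1.0 ± 0.16 SE (adjusted p = 0.00111), and in HY/HY mice the fold was 1.87 (log2 0.90 ± 0.16, adjusted p = 0.0431). The wild-type call held in each of 21 alternative analyses. The HY/HY call was lost in 12 of 21, among them the removal of any single library except HY/HY replicate 3 at 30°C or wild-type replicate 3 at 30°C, with log2 values between 0.75 and 1.00. Averaged over genotypes, a comparison also chosen after seeing the data, the difference was log2 0.95 ± 0.11 SE (adjusted p = 0.000199). Between genotypes *Loxl1* was at log2 0.09 at 30°C (95% interval -0.25 to 0.43) and -0.01 at 8°C (-0.35 to 0.33).

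*Lox* in wild-type mice was higher at 8°C in every library, with the levels given above (1.54-fold, log2 0.63 ± 0.21 SE, adjusted p = 0.049). That call was lost in 9 of 21 alternatives, 8 of them the removal of 1 library, with log2 values from 0.29 to 0.72 where it was lost. In HY/HY mice the libraries overlapped (log2 0.10 ± 0.20, adjusted p = 0.862). The interaction, which is the test of whether the cold response differed between genotypes, gave log2 -0.53 (95% interval -1.17 to 0.11, adjusted p = 0.43).

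*Tgfb3* was at 45.0, 61.2 and 70.6 CPM at 30°C and at 42.1, 32.8 and 24.8 CPM at 8°C in wild-type mice. In HY/HY mice it was at 42.5, 47.8 and 24.7 CPM at 30°C and at 44.6, 37.9 and 34.6 CPM at 8°C. The wild-type groups did not overlap, by a narrow margin, and the HY/HY groups did. The fold in wild-type mice was 0.563 (log2 -0.83 ± 0.26 SE, adjusted p = 0.0352), and the call was lost without replicate 2 or 3 at 30°C or at 8°C, where the log2 value lay between -0.80 and -0.65. In HY/HY mice the difference was log2 0.03 ± 0.25 (adjusted p = 0.977), and the interaction did not pass (log2 0.85, 95% interval 0.07 to 1.64, adjusted p = 0.29).

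**Figure D4:**
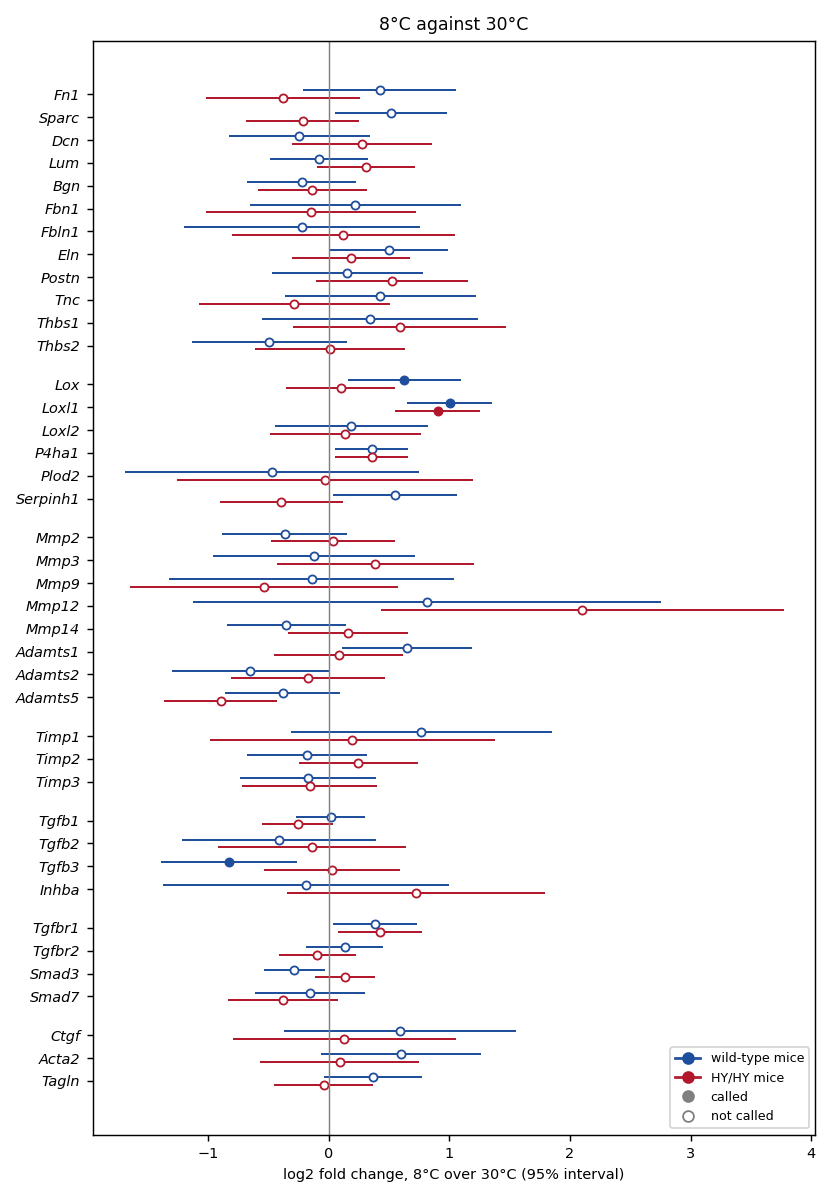
Log2 fold change of each member at 8°C over 30°C in wild-type (blue) and HY/HY (red) mice, with its 95% interval, members grouped by role, filled points called. *Loxl1* lies near 1 in both genotypes, and *Lox* and *Tgfb3* are filled in wild-type mice.

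*Adamts5* was lower in the cold in every HY/HY library than at 30°C but missed the threshold there (log2 -0.90 ± 0.21 SE, adjusted p = 0.11), and it was at log2 -0.38 ± 0.21 in wild-type mice (adjusted p = 0.208). Averaged over genotypes it was called lower (log2 -0.64 ± 0.15, adjusted p = 0.0105), with 1 of 40 members called higher, where 7.29% of all genes were, and 1 lower, where 4.96% were. That call was lost without wild-type replicate 2 or HY/HY replicate 3 at 30°C, or without HY/HY replicate 2 at 8°C, where the log2 value was between -0.57 and -0.52. An unadjusted p under 0.05 was found for 8 members (20.0%) in this average, against 38.4% of all genes.

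No member passed the interaction test, where 2.24% of all genes did. Its lowest adjusted p among members was 0.194, for *Serpinh1* (log2 -0.94, 95% interval -1.66 to -0.23), whose level went from 379, 250 and 421 CPM to 547, 436 and 553 CPM with cold in wild-type mice and from 550, 790 and 558 CPM to 550, 532 and 364 CPM in HY/HY mice. An unadjusted p under 0.05 was found for 4 members (10%), against 15.0% of all genes, and DESeq2 called no member, where it called 4.98% of the genes it tested. In the cold comparisons of the genotypes, which share no library, 13 members were above 0 in both, 8 below 0 in both and 19 (47.5%) on opposite sides, against 30.7% of all genes on opposite sides. The median member difference with cold was log2 0.07 in wild-type and 0.09 in HY/HY mice, against -0.07 and -0.01 over all genes.

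Other genes of the matrix and of the pathway were counted by the same rule, without a comparison with the members. Of the 129 tested, 2 were called higher in HY/HY mice at 30°C and 6 at 8°C, where 0.562% and 1.51% of all genes were. Called lower were 0 and 1, where 0.441% and 4.42% of all genes were. Of 30 other glycoproteins and proteoglycans tested, 2 were called higher in HY/HY mice at 30°C and 3 at 8°C, with none lower. They were *Matn2* (matrilin-2, log2 1.07) and *Lama4* (a laminin chain, log2 0.66) at 30°C, and *Ogn* (osteoglycin, log2 0.98), *Efemp1* (fibulin-3, log2 0.91) and *Nid1* (nidogen-1, log2 0.68) at 8°C. Of 23 other proteases and inhibitors, *Adamts15* (log2 1.11) and *Mmp28* (log2 0.97) were called higher at 8°C and none lower. Among 14 other crosslinking and folding enzymes none was called at either temperature, and 5 at 30°C and 2 at 8°C had an unadjusted p under 0.05, a measure that 18.6% and 22.4% of all genes met.

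In the wider TGF-beta family, 1 of 13 ligands and antagonists was called between genotypes, *Inhbb* (another activin subunit) higher at 8°C at log2 0.85. Of all genes 1.51% were called higher there. None of 22 receptors and mediators and none of 11 genes of latent TGF-beta storage was called. At 8°C 2 receptors or mediators had an adjusted p under 0.05 but missed the fold limit. An unadjusted p under 0.05 was found for 4 receptors and mediators (18.2%) and 1 storage gene (9.09%) at 30°C, against 18.6% of all genes. At 8°C it was found for 9 (40.9%) and 1 (9.09%), against 22.4% of all genes. Of 16 further target genes *Id1*, a known target of BMP signals, was called lower at 8°C at log2 -0.77, where 4.42% of all genes were called lower.

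With cold in wild-type mice, 5 of the 129 tested genes of these lists were called higher, where 10.3% of all genes were. Called lower were 7, where 6.93% of all genes were. An unadjusted p under 0.05 was found for 43 of them (33.3%), against 38.4% of all genes. Of the 23 other proteases and inhibitors, 4 were called higher. Among them were the aggrecanase *Adamts4* (log2 2.60), *Adam12* (log2 1.90) and *Adamts9* (log2 1.16). *Adamtsl4*, an ADAMTS-like gene counted in this list, was lower (log2 -1.11). *Adamts9* was the gene of these lists with a called interaction (log2 -1.16, adjusted p = 0.0113). *Inhbb* (log2 -0.92) and *Bmp4* (log2 -0.76) fell among the ligands, *Acvr1b*, an activin receptor, fell (log2 -0.90) and the inhibitory *Smad6* rose (log2 0.70) among the receptors and mediators. *Itgb5*, an integrin chain able to release TGF-beta, fell (log2 -0.67), as did *Tgfbi*, a TGF-beta induced glycoprotein (log2 -0.94), and *Vtn*, vitronectin (log2 -0.85). In HY/HY mice none of these lists had a called gene with cold, and 16 of their 129 tested genes (12.4%) had an unadjusted p under 0.05, against 14.7% of all genes.

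Marker genes of other cells moved with genotype. Of all tested genes, 0.562% were called higher in HY/HY mice at 30°C and 1.51% at 8°C, and 0.441% and 4.42% lower. Markers of fibroblasts and adipocyte progenitors (8 genes, *Pdgfra* and *Dpp4* among them) summed to 749 to 940 CPM in wild-type and 797 to 1356 CPM in HY/HY mice at 30°C, and to 594 to 750 and 853 to 1060 CPM at 8°C, where 3 of 8 were called higher. Markers of macrophages (8 genes) summed to 170 to 174 CPM in wild-type and 195 to 336 CPM in HY/HY mice at 30°C, and to 131 to 147 and 225 to 303 CPM at 8°C, where 3 of 8 were called higher. Markers of smooth muscle and pericytes summed to 506 to 639 and 746 to 881 CPM at 30°C, where 1 of 8 was called higher, and to 690 to 770 and 577 to 683 CPM at 8°C, where none was. Markers of mammary epithelium ran the other way, at 3376 to 5583 CPM in wild-type against 879 to 2211 CPM in HY/HY mice at 30°C, then 2039 to 2351 against 1140 to 1945 CPM at 8°C. At 30°C 1 of 8 was called lower, and at 8°C none was. Adipocyte markers summed to 23382 to 44333 CPM in wild-type and 22567 to 51082 CPM in HY/HY mice at 30°C, and to 29838 to 37175 and 37387 to 50596 CPM at 8°C, where 2 of 8 were called higher. At 8°C the fibroblast, macrophage and adipocyte sums were thus apart between genotypes, in the direction of *Dcn*, *Lum*, *Thbs2*, *Lox* and *Adamts5*, and the endothelial, smooth muscle, mammary, beige adipocyte and skeletal muscle sums were apart in the other direction. Single markers did not all follow their sums. At 8°C 6 of 8 smooth muscle and pericyte markers had a fold above 1 in HY/HY mice, against the direction of their sum. So had 5 of 8 fibroblast and progenitor markers, and 8 of 8 macrophage and 8 of 8 adipocyte markers. Of the endothelial markers 2 of 8 had, of the mammary 3, of the skeletal muscle 1 and of the beige adipocyte markers 0. Of the beige adipocyte markers, 7 of 8 were called lower in HY/HY mice at 8°C. The part of these cells in the differences of the members was not tested.

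**Figure D5:**
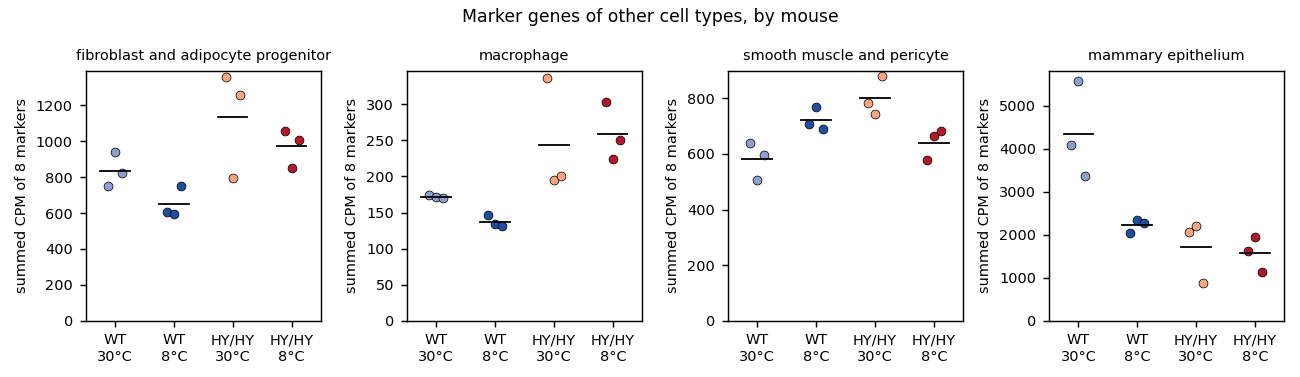
Summed CPM of 8 marker genes for each of 4 cell types, one point per mouse and the group mean as a line. Macrophage sums of HY/HY mice lie above those of wild-type mice at both temperatures, fibroblast and progenitor sums do so at 8°C, and mammary epithelium sums lie below them.

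Beige adipocyte markers rose with cold from at most 194 to between 8836 and 9995 CPM in wild-type mice and from at most 229 to between 540 and 1784 CPM in HY/HY mice. Endothelial markers rose with cold in wild-type mice, from 579 to 844 CPM to 1057 to 1348 CPM, and overlapped between temperatures in HY/HY mice. In wild-type mice 4 of 8 were called higher, where 10.3% of all genes were. At 8°C the HY/HY mice lay at 761 to 1008 CPM, below every wild-type mouse, and none of the 8 markers was called between genotypes. Neutrophil markers stayed at or below 5.63 CPM and lymph node markers at or below 18.2 CPM in every library. Whether any of these accompanies the cold response of *Loxl1* was not tested.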

How the data were processed

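RNA of scWAT was sequenced as paired reads of 50 bases. The authors trimmed reads with fastp, checked them with FastQC and aligned them with STAR to mm10 with GENCODE M25 genes, and deposited unnormalised counts of read pairs per gene for each library. The files hold sense, antisense and unstranded counts. Read pairs mapping to several places (26.7% to 32.2%), unmapped (25.1% to 28.8%), outside genes or ambiguous were deposited as separate entries and kept out of library sizes.

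Counts of the sense strand were used. Of 55401 gene identifiers, 32589 had a symbol in RefSeq tables, and 2645 that share a symbol were left out of the lookup by name. Coordinates and promoter windows are those of RefSeq for GRCm38.p6, the same assembly as mm10, and exon lengths were taken from GENCODE M1. edgeR 4.0.16 in R 4.3.3 filtered genes with filterByExpr, scaled with TMM and fitted the 4 group means with a quasi-likelihood model (8 residual degrees of freedom), adjusting p-values by Benjamini-Hochberg over all 16540 genes. The script was tested on simulated data. Calls needed an adjusted p under 0.05 and a fold above 1.5 or below 0.67, and the interaction an adjusted p alone. Alternatives used DESeq2 1.42.0, other scalings and filters, each library left out, and a replicate block. Members called in at least 1 of the 5 designed comparisons are given with all their values, as are those called in either of the 2 averaged comparisons, and called genes of other lists by name, at most 3 per list and comparison.

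The members and lists were chosen with earlier results of these data known. The labels do not state that equal replicate numbers mark shared litters or days. Across 18 same-numbered pairs of libraries the deviations correlated at -0.07 to 0.35. In the cold comparison of HY/HY mice every same-numbered pair exceeded 0.1 (0.112, 0.199 and 0.303), and differently numbered pairs reached at most 0.0857. In other comparisons some differently numbered pairs also exceeded 0.1, such as wild-type replicate 2 and HY/HY replicate 1 at 30°C (0.184). These values do not show that the numbers paired the mice. The blocked adjusted p of *Loxl1* in the cold comparison of HY/HY mice was 0.0166. Protein sequences were not used here.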

Additional observations from a re-analysis of the deposited data

How the results depend on the processing

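No called gene changed sign. Counts of members called are given as higher or lower. With library totals in place of TMM, cold in wild-type mice gave 1 higher and 4 lower, cold in HY/HY mice 0 higher, genotype at 30°C 1 higher and cold over both genotypes 3 lower, and the members' median log2 difference was -0.273 for cold in wild-type mice, -0.194 for cold over both genotypes and 0.206 for the interaction. Without a filter on low counts, genotype gave 5 higher at 30°C, 10 at 8°C and 12 with 1 lower over both temperatures, cold in HY/HY mice 1 lower and cold over both genotypes 2 higher. DESeq2 gave 7, 10 and 11 with 1 lower for genotype at 30°C, at 8°C and over both, 1 lower for cold in HY/HY mice and 2 higher for cold over both. With only the libraries of a comparison, genotype gave 0 higher at 30°C and 12 higher with 1 lower at 8°C, and cold in HY/HY mice 0. With the adjusted p alone, cold over both genotypes gave 3 higher. With a replicate block, genotype at 8°C gave 10 higher, genotype over both temperatures 11, cold in wild-type mice 2 lower and cold over both genotypes 2 higher. Only in the cold comparison of HY/HY mice did every same-numbered pair of libraries correlate above 0.1, and there the block changed no call. In every comparison the block rests on a shared number. Except where a value above shows it, the cause was not tested.

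With 1 library left out, the count higher was 1 to 3 for cold in wild-type mice (lower 0 to 1), 0 to 1 for cold in HY/HY mice, 1 to 4 for genotype at 30°C, 0 to 8 at 8°C, 4 to 13 over both temperatures, and 1 to 2 for cold over both genotypes (lower 0 to 1). The members' median was 0.167 to 0.472 for genotype at 30°C and -0.155 to 0.181 for the interaction. Leaving out a library leaves 2 mice in its group, so a lost call there also rests on fewer samples.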
